A study of Danio rerio with 15 samples.

Results

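The 10 genes described here switch the Ras GTPases on and off or carry the signal of a growth factor receptor to them. They are listed as nf1a, nf1b, rasa1a, rasa1b, sos1, sos2, grb2b, shc1, ptpn11a and ptpn11b, and were taken by symbol from a deposited table of 22513 zebrafish genes. All 10 were found. For NF1 and RASA1 the symbol table drops the paralog letter, so the 2 copies of each are told apart by Ensembl ID, and the other copy of ptpn11b is listed there as PTPN11. A second GRB2 gene (ENSDARG00000105276) is not among the 10 and is treated with the related genes.

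Poly(A) RNA was sequenced from 7 brain tumors of zebrafish (libraries 5, 6, 7, 8, 12, 13 and 14) and from 8 normal brains (libraries 1, 2, 3, 4, 9, 10, 11 and 15). The tumors are described by the submitters as NRAS-driven primitive neuroectodermal tumors of the central nervous system (CNS-PNET), and the normal samples are whole brains. The strain, the age, any allele shared by tumor and control fish, the form of NRAS and the promoter that drove it are not stated by the labels. The labels do not say whether the libraries came from separate fish. The p-values therefore set the group difference against the spread between these libraries and may not extend to other fish.

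Ras proteins are small GTPases that signal while they hold GTP and are silent once it is hydrolysed to GDP. GTPase-activating proteins (GAPs) such as neurofibromin, the product of NF1, and p120 RasGAP, the product of RASA1, speed that hydrolysis, while guanine nucleotide exchange factors (GEFs) such as SOS1 and SOS2 load Ras with new GTP. Activated receptor tyrosine kinases reach SOS through the adaptors SHC1 and GRB2, and the phosphatase SHP2, the product of PTPN11, promotes the same step. In human tumors of the nervous system, loss of NF1 is a known way to raise Ras activity. Zebrafish carry duplicates of several of these genes from a genome duplication in the ancestor of teleost fishes.

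The libraries held 13605588 to 21347976 counts, and each of the 10 genes had counts in every library and passed the filter on low counts. Levels within a gene are given in CPM, the count scaled to a common library size, and levels of different genes are compared in FPKM, the authors' length-scaled unit. Tests are edgeR's quasi-likelihood test over 19260 genes with Benjamini-Hochberg adjustment and a threshold of 0.05. NRAS itself ran from 21.2 to 46.2 CPM in the tumors (median 28.1), against 7.49 to 10.8 CPM in normal brain (median 8.53), and rose by a log2 fold change of 1.74 ± 0.15 (SE, adjusted p = 3.06e-08). The labels do not say whether transcripts of a transgene were counted there. All 9 tested neuron markers of a list of 10 fell, with a summed level of 389 to 2135 CPM of the unscaled library total in tumors and 7499 to 8695 CPM in normal brain. All 6 cycling-cell markers rose (1061 to 2443 in tumors, 81.1 to 122 in normal brain), as did 7 of 8 microglia and macrophage markers (1816 to 3443 in tumors, 668 to 1076 in normal brain). Of 8 oligodendrocyte lineage markers 7 rose and 1 fell, with sums that overlapped (12238 to 32377 CPM in tumors, 12386 to 19813 CPM in normal brain). All 4 tested skeletal muscle markers of a list of 5 rose, with sums of 898 to 2261 CPM in brain tumors 5, 6, 12 and 14, of 19.2 to 74.7 CPM in brain tumors 7, 8 and 13, and of 19.7 to 231 CPM in normal brain. No marker of these 5 lists was at 0 in every library. In bulk tissue, fewer cells of a type and less RNA per cell cannot be told apart, and the part that the tissues and cell types behind these markers play in the results below was not tested. Liver markers summed to 9141 CPM in normal brain 1 and at most 26.4 CPM elsewhere, skin markers to 4488 CPM in normal brain 4 and at most 1141 CPM elsewhere, and photoreceptor markers were highest in normal brain 2 (94.0 CPM), while brain tumor 13 had the lowest neuron markers of the tumors.

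Of the 10 genes, 6 rose in the tumors, 2 fell and 2 did not pass the test. Over all tested genes 43.5% rose, 33.4% fell and 76.9% changed in either direction, so 8 changed genes of 10 is near the background. A change of at least 2-fold was seen in 5 genes upward, beside 27.3% of all tested genes, and in 1 downward, beside 25%. These counts moved with the setting. With median-ratio size factors grb2b had a log2 fold change of 0.87 and ptpn11b of -1.01. Without any of normal brain 1, 2, 4 or 11 grb2b had 0.97 to 0.99, and without brain tumor 14 ptpn11b had -1.03. In each of these fits without 1 library the median log2 fold change of all tested genes was also lower, at 0.11 to 0.12 in place of 0.21. The copies of RASA1, the PTPN11 gene, 1 NF1 copy, grb2b and SOS2 were higher in tumors, and SHC1 and ptpn11b were lower. The other NF1 copy and SOS1 did not pass. For 5 of the genes all tumors lay above all normal brains, beside 27.2% of the tested genes, and for 1 all tumors lay below, beside 24.6%, which makes 6 genes without overlap beside 51.9%. The median log2 fold change of the 10 was 0.74, beside 0.21 over all tested genes.

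**Figure D1:**
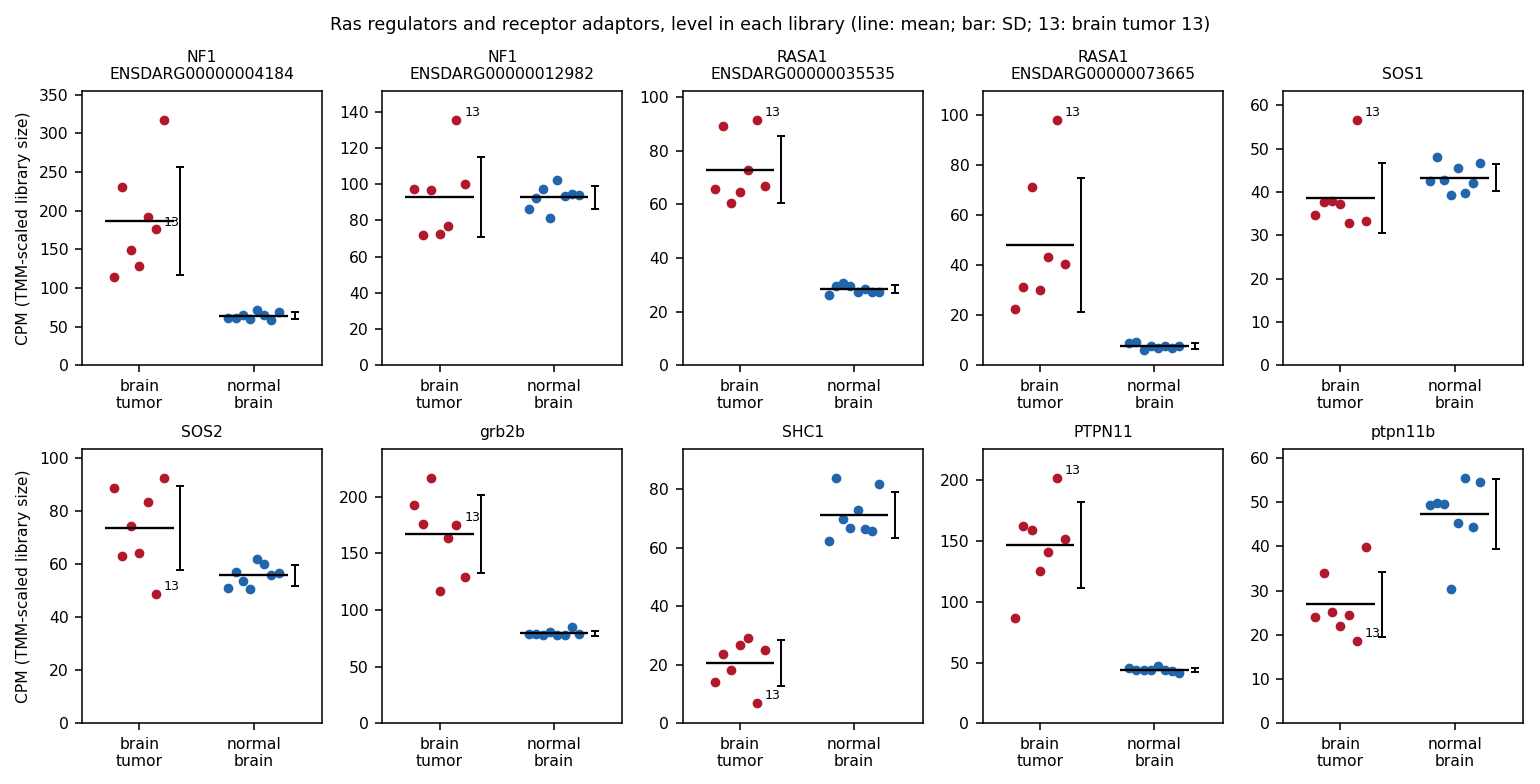
Level of each of the 10 genes in CPM (linear axes from 0) in 7 brain tumors (red) and 8 normal brains (blue), with 1 point per library, a line at the group mean and a bar for the SD beside it. The 2 RASA1 copies, PTPN11, grb2b and NF1 (ENSDARG00000004184) lay above normal brain in all 7 tumors and SHC1 below it in all 7, and brain tumor 13 was the lowest tumor for SHC1, ptpn11b and SOS2.

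Among the genes that switch Ras off, both RASA1 copies were well above normal brain. RASA1 (ENSDARG00000073665) had 22.6 CPM in the lowest tumor, a median of 40.5 CPM and 97.9 CPM in the highest, against 5.96, 7.63 and 9.45 CPM in normal brain. Every tumor exceeded every normal brain, and the tumors themselves spread 4.33-fold, with brain tumor 13 (97.9 CPM) and brain tumor 7 (71.1 CPM) well above the other 5 (22.6 to 43.5 CPM). The gene rose by a log2 fold change of 2.65 ± 0.27 (SE, adjusted p = 2.6e-07), the largest change of the 10. RASA1 (ENSDARG00000035535) had 60.4 CPM in the lowest tumor, a median of 66.9 CPM and 91.3 CPM in the highest, against 26.3, 27.9 and 30.6 CPM in normal brain. This copy rose by 1.36 ± 0.10 (adjusted p = 5.42e-09) and was the most even of the 10 among tumors, with an SD of 0.23 in log2 CPM.

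Neurofibromin is the GAP whose loss in humans causes neurofibromatosis type I, and its 2 zebrafish genes moved apart in the tumors. NF1 (ENSDARG00000004184) had 114 CPM in the lowest tumor, a median of 176 CPM and 317 CPM in the highest, against 58.9, 63.0 and 71.9 CPM in normal brain. It rose by a log2 fold change of 1.54 ± 0.18 (adjusted p = 1.03e-06) with no overlap between the groups. Brain tumor 14 was the highest tumor and brain tumor 5 the lowest. NF1 (ENSDARG00000012982) had 72.2 CPM in the lowest tumor, a median of 96.5 CPM and 135 CPM in the highest, against 81.5, 93.7 and 102 CPM in normal brain. Here 3 tumors lay below every normal brain, 1 lay above, and the means were 93.0 ± 22.2 CPM in tumors and 92.7 ± 6.40 CPM in normal brain (SD, n = 7 and 8). The log2 fold change of 0.0042 ± 0.13 did not pass (adjusted p = 0.977), and its sign differed between settings. A gene that did not pass is not shown to be unchanged.

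The exchange factors SOS1 and SOS2, which load Ras with GTP, had the smallest fold changes after NF1 (ENSDARG00000012982). SOS2 had 49.0 CPM in the lowest tumor, a median of 74.4 CPM and 92.4 CPM in the highest, against 50.5, 56.2 and 62.0 CPM in normal brain. In CPM, 6 tumors lay above every normal brain, and brain tumor 13 lay below all of them. In FPKM, which uses unscaled totals, brain tumors 6 and 7 (11.6 each) lay below normal brain 9 (11.8). SOS2 rose by a log2 fold change of 0.40 ± 0.12 (adjusted p = 0.00717). This call was lost with median-ratio size factors (0.20, adjusted p = 0.131). It was also lost without any of brain tumor 14 or normal brain 1, 2, 4 or 11 (0.24 to 0.30, adjusted p = 0.051 to 0.0787). In each fit without 1 of these libraries the median log2 fold change of all tested genes was lower too, at 0.11 to 0.12 in place of 0.21. SOS1 had 32.9 CPM in the lowest tumor, a median of 37.2 CPM and 56.5 CPM in the highest, against 39.2, 42.6 and 48.1 CPM in normal brain. For 6 tumors the level was below every normal brain, and for brain tumor 13 it was above all of them in CPM. In FPKM brain tumor 13 (11.9) lay within the normal range (10.6 to 12.7). The log2 fold change of -0.17 ± 0.11 did not pass (adjusted p = 0.186). Without brain tumor 13 it was -0.28 with an adjusted p of 0.00247, without normal brain 4 it was -0.28 (0.047), and with median-ratio size factors it was -0.36 (0.00998). The median log2 fold change of all tested genes was 0.2, 0.12 and 0.02 in these 3 fits, in that order.

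Of the adaptors that bring SOS to a receptor, grb2b rose and SHC1 fell. The product of grb2b binds phosphorylated receptors with its SH2 domain and SOS with its SH3 domains. It had 117 CPM in the lowest tumor, a median of 175 CPM and 216 CPM in the highest, against 77.7, 78.6 and 85.0 CPM in normal brain, so no tumor overlapped with normal brain. Its log2 fold change was 1.07 ± 0.12 (adjusted p = 4.37e-07). Normal brains were closest together for this gene, with an SD of 0.04 in log2 CPM. SHC1, a scaffold that is phosphorylated by receptors and then binds GRB2, had 6.92 CPM in the lowest tumor, a median of 23.6 CPM and 29.3 CPM in the highest, against 62.1, 68.2 and 83.8 CPM in normal brain. It fell by a log2 fold change of -1.79 ± 0.23 (adjusted p = 3.32e-06), and all 7 tumors lay below all 8 normal brains. The lowest SHC1 was in brain tumor 13, which also had the lowest summed neuron markers (389 CPM), and the next lowest was in brain tumor 5 (14.2 CPM), which had the next lowest neuron markers (569). At the upper end the orders differed, since SHC1 was highest in brain tumor 12 (29.3 CPM, neuron markers 986), while neuron markers were highest in brain tumor 8 (2135, SHC1 26.8 CPM). Like SHC1, summed endothelium markers were lowest in brain tumor 13 (57.7 CPM) and highest in brain tumor 12 (193 CPM). Of the 6 endothelium markers 2 rose and 1 fell, and in normal brain they summed to 128 to 160 CPM. Skin markers had the same lowest and highest tumor (8.36 and 1141 CPM). The part of neuronal, endothelial or skin content in this result was not tested.

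The 2 genes of the phosphatase SHP2 went in opposite directions. PTPN11 had 86.7 CPM in the lowest tumor, a median of 152 CPM and 202 CPM in the highest, against 41.6, 43.9 and 47.3 CPM in normal brain. It rose by a log2 fold change of 1.73 ± 0.13 (adjusted p = 1.02e-08), and even brain tumor 5, the lowest tumor, was above every normal brain. For ptpn11b the lowest tumor had 18.6 CPM, the median was 24.5 CPM and the highest 39.9 CPM, against 30.3, 49.3 and 55.4 CPM in normal brain. The gene fell by -0.81 ± 0.16 (adjusted p = 0.000285). Brain tumors 14 (39.9 CPM) and 6 (34.0 CPM) overlapped with normal brain 4 (30.3 CPM), which was far below the other normal brains (44.3 to 55.4 CPM), and the other 5 tumors lay below every normal brain.

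Whether the genes of a pair changed by different amounts was tested on the log2 ratio of their counts in each library, which does not depend on how libraries are scaled. The 4 pairs were compared by an exact permutation test (two-sided, 7 tumors against 8 normal brains), and the p-values were adjusted over the 4 pairs. Which gene of a pair was put on top sets the sign of the difference. PTPN11 over ptpn11b had a mean log2 ratio of 2.45 ± 0.53 in tumors and -0.08 ± 0.29 in normal brain (SD, n = 7 and 8), a difference of 2.53 (exact p = 0.000311, adjusted p = 0.000414). NF1 (ENSDARG00000004184) over NF1 (ENSDARG00000012982) had 0.96 ± 0.60 in tumors and -0.53 ± 0.08 in normal brain, a difference of 1.49 with the same exact p and adjusted p. In both pairs the ratio of every tumor exceeded that of every normal brain.

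For RASA1 (ENSDARG00000073665) over RASA1 (ENSDARG00000035535) the mean log2 ratio was -0.75 ± 0.71 in tumors and -1.89 ± 0.24 in normal brain, so the scarcer copy had the larger change, by a difference of 1.14 (exact permutation p = 0.000311, adjusted p = 0.000414). The lowest RASA1 ratio of a tumor, -1.53 in brain tumor 5, was only just above the highest of a normal brain, -1.55 in normal brain 1. An exact p of 0.000311 is the smallest that this design can give. SOS1 over SOS2 had a lower mean log2 ratio in tumors, at -0.92 ± 0.58 against -0.37 ± 0.12 in normal brain. The difference was -0.56 (exact permutation p = 0.023, adjusted p = 0.023), and -0.75 without brain tumor 13 (adjusted p = 0.000666). Without any of brain tumors 5, 12 or 14 it was -0.49 to -0.47, just past the threshold (adjusted p = 0.0493 each). The ratio was below every normal brain in 6 tumors and above them all in brain tumor 13, at 0.21. The labels do not say how reads that match both genes of a pair were assigned.

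**Figure D2:**
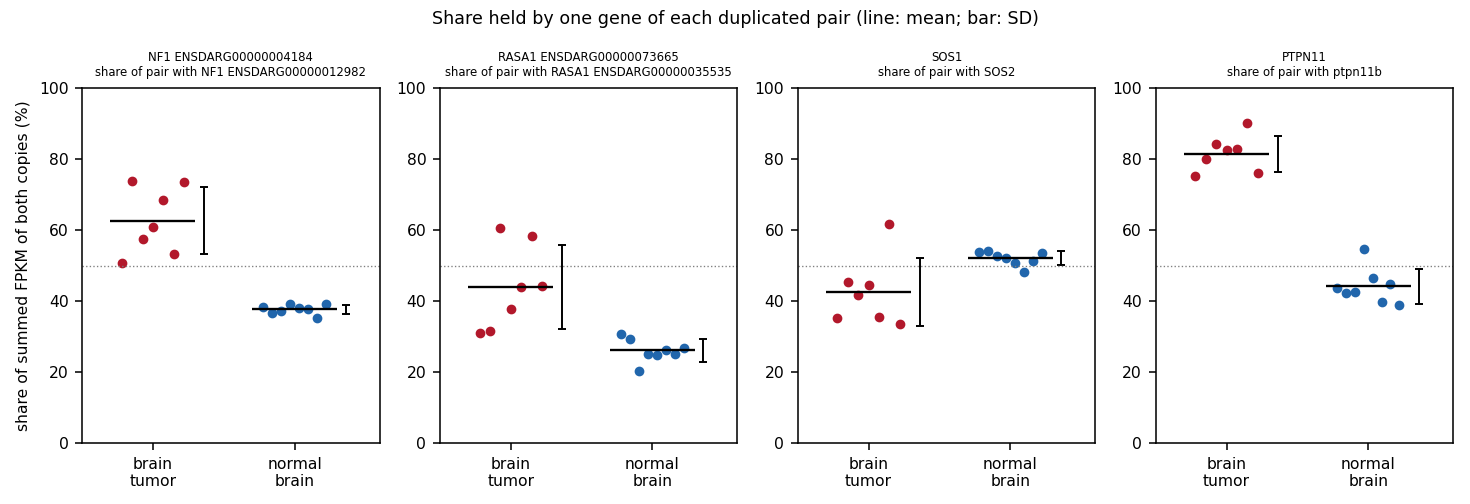
Share, in percent, of the summed FPKM of a pair of genes that the named gene held in each library (points), with the group mean (line) and SD (bar), in brain tumors (red) and normal brains (blue). NF1 (ENSDARG00000004184) held 50.7 to 73.7% in tumors and 35.4 to 39.2% in normal brain, and PTPN11 held 75.1 to 90.0% in tumors and 38.9 to 54.6% in normal brain.

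Per length, the gene with the larger mean share was not the same in tumors and normal brain for NF1, SHP2 and SOS. NF1 (ENSDARG00000004184) held 62.6 ± 9.43% of the summed FPKM of both NF1 genes in tumors and 37.7 ± 1.27% in normal brain. PTPN11 held 81.5 ± 5.10% of the SHP2 pair in tumors and 44.2 ± 4.91% in normal brain. RASA1 (ENSDARG00000073665) held 44.0 ± 11.8% of its pair in tumors and 26.1 ± 3.21% in normal brain, and passed 50% of it in brain tumors 7 (60.7%) and 13 (58.4%). SOS1 held 42.6 ± 9.70% of the SOS pair in tumors and 52.0 ± 1.996% in normal brain (SD, n = 7 and 8 throughout). It held 61.8% in brain tumor 13 and 48.1% in normal brain 10. In counts SOS1 was on average below SOS2 in both groups (mean log2 ratio -0.92 and -0.37). The switch for SOS thus rests on the gene lengths behind FPKM.

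The mean of the summed FPKM of both genes was clearly higher in tumors for 3 of the 4 pairs. For RASA1 the sum was 14.4 to 27.8 FPKM in tumors and 5.70 to 6.67 FPKM in normal brain, and for NF1 it was 16.9 to 34.1 FPKM in tumors and 12.4 to 15.1 FPKM in normal brain, with no overlap in either. The SHP2 pair summed to 43.5 ± 8.06 FPKM in tumors and 26.5 ± 2.30 FPKM in normal brain. Only its lowest tumor, brain tumor 5 at 28.9 FPKM, fell within the normal range of 21.6 to 29.1 FPKM. The SOS pair gave 22.5 ± 2.53 FPKM in tumors and 22.02 ± 1.245 FPKM in normal brain and the ranges overlapped. These sums are given as a description, without a test.

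Set side by side, the 4 GAP genes summed to 41.3 ± 7.92 FPKM in tumors and 19.5 ± 0.772 FPKM in normal brain. The ratio of the GAP sum to the SOS sum ran from 1.27 to 2.52 in tumors and from 0.845 to 0.937 in normal brain. In FPKM, these GAP genes thus outweighed the SOS genes in every tumor and fell short of them in every normal brain. Which side of equal sums a library falls on rests on the gene lengths behind FPKM, whose accuracy was not assessed. The other Ras GAPs and GEFs, described below, are left out of these sums, so the ratio does not describe all Ras GAPs and GEFs. Protein and activity were not measured.

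**Figure D3:**
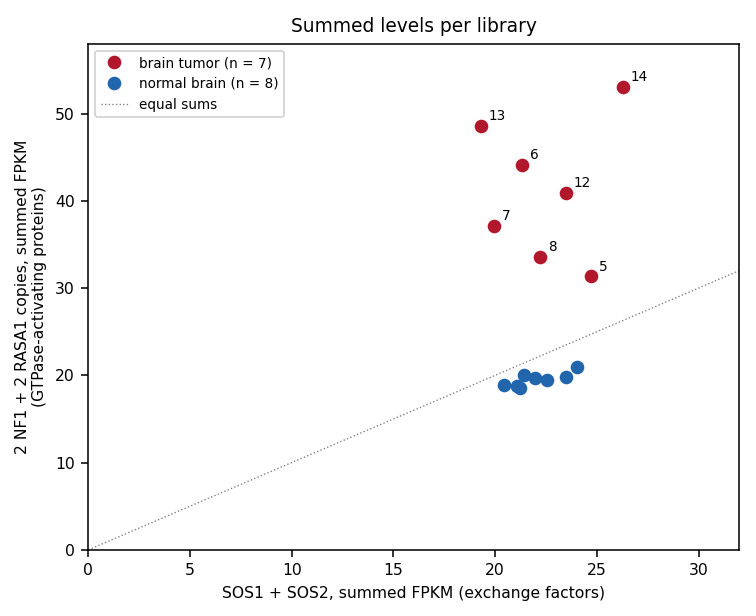
Summed FPKM of the 4 GAP genes (vertical axis) against summed FPKM of SOS1 and SOS2 (horizontal axis) in each library, with tumors in red and numbered and normal brains in blue; the dotted line marks equal sums. All 7 tumors lie above the line and all 8 normal brains below it, while the SOS sums of both groups cover 19.3 to 26.3 FPKM.

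The order of the 10 genes per length differed between the tissues. In tumors grb2b was first with 68.0 ± 11.3 FPKM and PTPN11 next with 35.6 ± 7.03 FPKM, each above the next gene in 7 of 7 tumors. The remaining 8 ran from NF1 (ENSDARG00000004184) at 13.9 ± 5.85 FPKM down to SHC1 at 5.02 ± 2.16 FPKM, and no neighbours among them differed by more than the sum of their SDs. In normal brain grb2b was also first, with 35.1 ± 1.05 FPKM, but SHC1 was next with 18.2 ± 1.92 FPKM, followed by ptpn11b with 14.9 ± 2.38 FPKM, which differed from SHC1 by less than the sum of their SDs, though SHC1 was the higher in 7 of 8 normal brains. PTPN11 (11.6 ± 0.573), SOS1 (11.5 ± 0.785) and SOS2 (10.6 ± 0.745 FPKM) came next, with neighbours differing by less than the sum of their SDs. PTPN11 was above SOS1 in 6 of 8 normal brains, and SOS1 was above SOS2 in 7 of 8. RASA1 (ENSDARG00000073665) was last at 1.596 ± 0.239 FPKM, below the other RASA1 copy (4.50 ± 0.270 FPKM) in 8 of 8 normal brains.

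The libraries fall by number into 1 to 8 (4 tumors and 4 normal brains) and 9 to 15 (3 tumors and 4 normal brains). The labels do not call these batches, and the subsets share no library. In libraries 1 to 8 alone 6 of the 10 genes rose, 2 fell and 2 did not pass, where 36.8% of all genes tested there rose and 30% fell. In libraries 9 to 15 alone 5 rose, 2 fell and 3 did not pass, beside 32.4% and 29.8%. RASA1 (ENSDARG00000073665) rose by 2.27 in the lower numbers and 2.89 in the higher, PTPN11 by 1.58 and 1.76, and NF1 (ENSDARG00000004184) by 1.32 and 1.65 on the log2 scale. SHC1 fell in both subsets (-1.78 and -1.94), as did ptpn11b (-0.77 and -0.99). SOS2 passed in the lower numbers (0.45, adjusted p = 0.0183) and did not in the higher (0.22, adjusted p = 0.432), and the difference between the subsets was not tested.

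**Figure D4:**
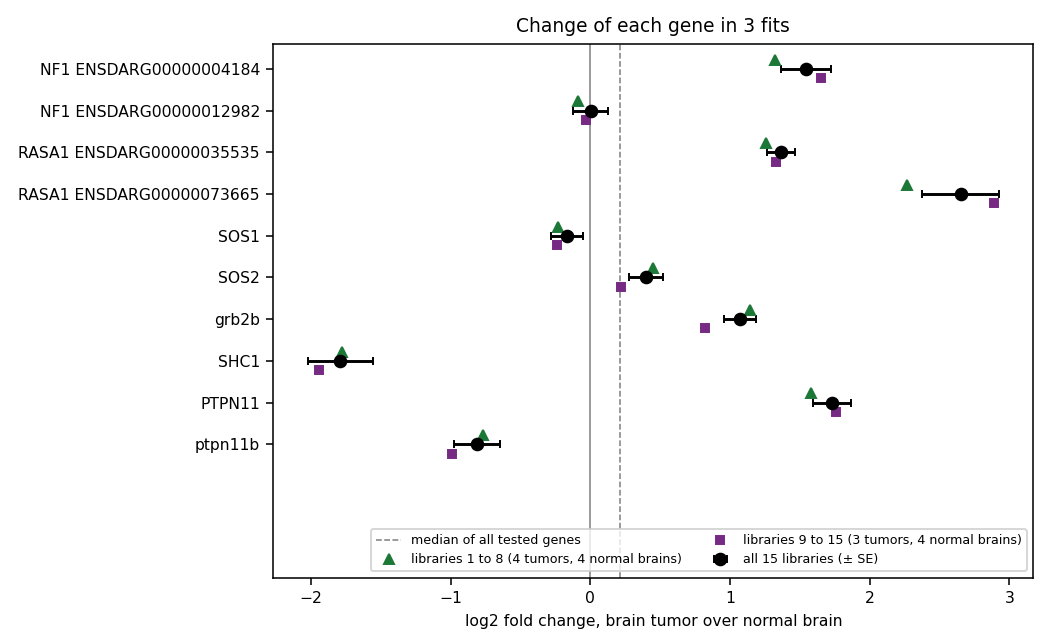
Log2 fold change of brain tumor over normal brain for each of the 10 genes in all 15 libraries (black, with SE), in libraries 1 to 8 (triangles) and in libraries 9 to 15 (squares); the dashed line is the median of all tested genes, 0.21. The genes past the threshold in the fit of all 15 libraries have the same sign in all 3 fits, and SOS1, SOS2 and NF1 (ENSDARG00000012982) lie within 0.45 of 0 in each.

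Tumors varied more than normal brains in each of the 10 genes, as did 92.2% of all tested genes. The median SD of log2 CPM over the 10 was 0.35 in tumors and 0.10 in normal brain, beside 0.49 and 0.19 over all tested genes. RASA1 (ENSDARG00000073665, SD 0.74) and SHC1 (SD 0.72) varied most among tumors. Brain tumor 13 was the highest tumor in CPM for 5 of the 10 genes, namely both RASA1 copies, NF1 (ENSDARG00000012982), SOS1 and PTPN11, and the lowest for SHC1, SOS2 and ptpn11b. It was the highest or lowest tumor in 57.7% of all tested genes, against 18.6 to 34.7% for each of the others. In FPKM, which uses unscaled totals, it was the highest for 4 of the 10 and again the lowest for 3. Without it and normal brains 1, 2 and 4, the log2 fold changes of the called genes were 2.48 and 1.29 for the RASA1 copies, 1.63 for PTPN11, 1.5 for NF1 (ENSDARG00000004184), 1.05 for grb2b, 0.42 for SOS2, -1.66 for SHC1 and -0.83 for ptpn11b, all still past the threshold, and SOS1 passed as well, as lower (-0.30, adjusted p = 0.00894).

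Other genes of the pathway were taken from 5 lists, which held 65 genes besides the 10, of which 63 were tested. Of these 27 of 63 rose and 27 fell, beside 43.5% and 33.4% of all tested genes, and 9 did not reach the threshold. Their median log2 fold change was 0.16, beside 0.21 over all tested genes.

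Of 10 other Ras GAPs, 3 rose and 7 fell, beside 43.5% and 33.4% of all tested genes, and the median log2 fold change was -1.08. Among those that fell was dab2ipb (-2.38 ± 0.25), a Ras GAP. The rising members were rasal3 (2.18 ± 0.34), which acts in blood cells in mammals, RASA3 (0.80 ± 0.17) and RASA2 (0.54 ± 0.14). Of the microglia and macrophage markers 7 of 8 were also higher, and of the neuron markers 9 of 9 were lower, and their part was not tested.

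Among 7 other Ras GEFs 2 rose and 4 fell, beside 43.5% and 33.4% of all tested genes, and 1 did not pass the threshold. Their median log2 fold change was -1.77. The calcium-responsive exchange factors of neurons, RASGRF1 (-1.77 ± 0.57) and both copies of RASGRF2 (ENSDARG00000002816 at -3.82 ± 0.48, ENSDARG00000075054 at -2.56 ± 0.34), fell. RASGRF1 had 66.8 ± 89.8 CPM in tumors and 227 ± 26.0 CPM in normal brain, so its SD among tumors exceeded its mean. The RasGRP family, which responds to diacylglycerol, was mixed. Its member rasgrp4 rose (2.0 ± 0.25), and RASGRP2 (ENSDARG00000062328) rose (2.02 ± 0.45) while RASGRP2 (ENSDARG00000099092) fell (-2.78 ± 0.27). The rising RASGRP2 gene was scarce, at 1.76 ± 1.38 CPM in tumors and 0.435 ± 0.204 CPM in normal brain. RASGRP3 had 22.2 ± 25.3 CPM in tumors and 16.6 ± 3.19 CPM in normal brain and did not pass.

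**Figure D5:**
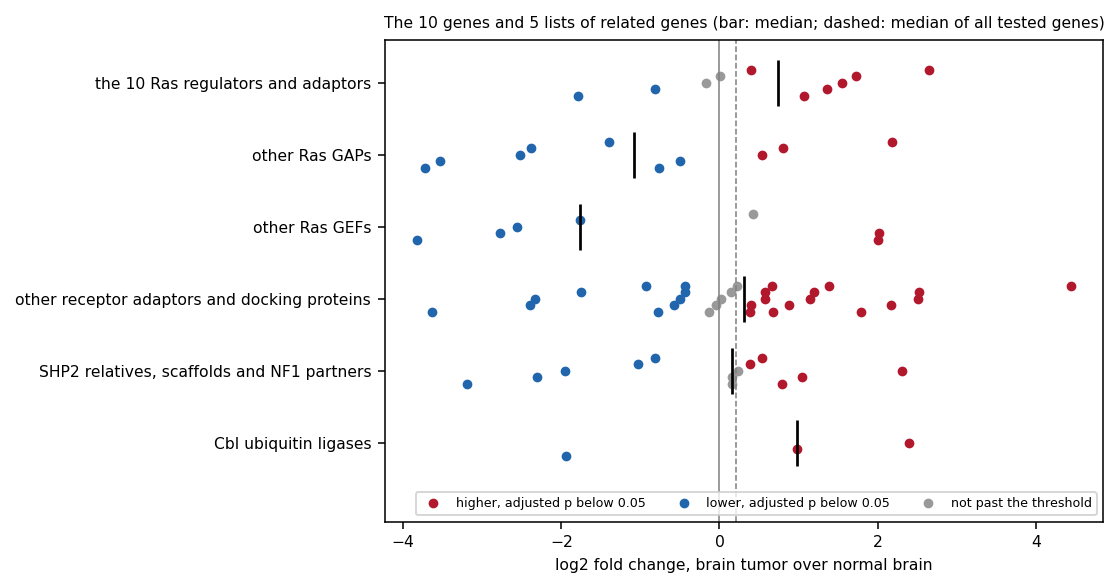
Log2 fold change of brain tumor over normal brain for the 10 genes and for the tested members of 5 lists of related genes, with 1 point per gene, red for higher, blue for lower and grey for not past the threshold; bars are list medians and the dashed line is the median of all tested genes. The medians are 0.74 for the 10 genes, -1.08 for other Ras GAPs, -1.77 for other Ras GEFs, 0.30 for adaptors, 0.16 for relatives and scaffolds and 0.98 for Cbl ligases.

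Among 30 tested adaptors and docking proteins 15 rose and 10 fell, beside 43.5% and 33.4% of all tested genes, and 5 did not pass the threshold. Their median log2 fold change was 0.30. The rises with the smallest p were those of grap2b at 2.51 ± 0.27, GRAP2 (ENSDARG00000006468) at 4.44 ± 0.52 and NCK1 (ENSDARG00000074262) at 2.52 ± 0.30. FRS3, an FGF receptor docking protein (-2.40 ± 0.15), IRS2 (ENSDARG00000037099), an insulin receptor substrate (-1.75 ± 0.19), and grapb (-3.63 ± 0.46) had the smallest p among the falls. The second GRB2 gene (ENSDARG00000105276) fell by -0.50 ± 0.13 (adjusted p = 0.00217), with 14.7 ± 2.89 CPM in tumors and 20.8 ± 2.28 CPM in normal brain. In FPKM grb2b made up 80.1 to 89.7% of the sum of both GRB2 genes in tumors and 68.6 to 73.8% in normal brain, ranges that do not overlap. The SHC1 relative SHC3, a neuronal adaptor in mammals, fell by -0.44 ± 0.18 (adjusted p = 0.0332), and shc2, at 1.33 ± 0.544 CPM in tumors and 1.45 ± 0.240 CPM in normal brain, did not pass. RASGRF1, RASGRP3, SHC3 and shc2 were named after their values were seen, as was SPRED1.

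In the list of SHP2 relatives, scaffolds and NF1 partners the median log2 fold change was 0.16. Of its 13 genes 5 rose and 5 fell, beside 43.5% and 33.4% of all tested genes, and 3 did not pass the threshold. PTPN6, the SHP1 phosphatase of blood cells, rose (2.31 ± 0.29), as did 1 copy of the Raf scaffold KSR1 (ENSDARG00000030933, 1.04 ± 0.18) and SHOC2 (0.54 ± 0.10), which helps to activate Raf. KSR2 (-3.19 ± 0.34), the other copy of KSR1 (ENSDARG00000068714, -2.31 ± 0.18) and SPRED3 (-1.96 ± 0.24) fell. SPRED1, whose product binds neurofibromin, had 206 ± 67.2 CPM in tumors and 176 ± 11.5 CPM in normal brain and did not pass (adjusted p = 0.214). Of the 3 Cbl ubiquitin ligases, which mark receptors for degradation, CBLB (2.40 ± 0.17) and CBL (0.98 ± 0.19) rose and cblc (-1.94 ± 0.42) fell.

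For each of the 10 genes the most similar of the tested genes with a symbol was sought. The measure was the root mean square difference of the log2 CPM, each gene centred on its own mean over the 15 libraries. A value of 0 is an identical pattern. SHC1 lay closest to tead1a (0.14) and TPI1 (0.19), where the median over the tested genes with a symbol was 1.25. RASA1 (ENSDARG00000035535) lay closest to PSMD1 (0.12), PTPN11 to si:dkey-42i9.15 (0.16), and grb2b to PHPT1 and DCUN1D2 (0.10 each). NF1 (ENSDARG00000004184) lay closest to SORCS2 (0.20) and NF1 (ENSDARG00000012982) to SEC23IP and washc2c (0.10 each). Among the 10 genes themselves, NF1 (ENSDARG00000012982) and SOS1 were the closest pair (0.19), followed by RASA1 (ENSDARG00000035535) and PTPN11 (0.27), and SHC1 and RASA1 (ENSDARG00000073665) were the farthest apart (2.34). The values were centred but not scaled, so these distances also carry the fold change between the groups and are not independent of it.

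The authors' deposited table gives a lower log2 fold change than the one above for each of the 10 genes, for example 2.43 for RASA1 (ENSDARG00000073665). The authors' deposited table has SOS1 at -0.37 with an adjusted p of 0.00555 and SOS2 at 0.19 with an adjusted p of 0.136, so the 2 SOS genes are the ones whose side of the threshold differs. With median-ratio size factors the median log2 fold change of all genes was 0.02, in place of 0.21. Relative to that median of 0.21, the changes were 2.44 and 1.15 for the RASA1 copies, 1.52 for PTPN11, 1.33 and -0.21 for the NF1 copies, 0.86 for grb2b, 0.19 for SOS2, -0.38 for SOS1, -1.03 for ptpn11b and -2.0 for SHC1.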

How the data were processed

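RNA-seq values of 7 brain tumors and 8 normal brains were taken from the authors' deposited table of 22513 genes. The authors' gene counts and FPKM values (counts scaled by gene length and library total) stand there per library, per the file headers, beside the authors' log2 fold change and adjusted p-value of tumor against normal brain. The aligner Novoalign 2.08.01 and DESeq2 are named in the submitters' processing notes, where counts may have been split between copies of a gene in a way not stated here. No genome build is stated for the table, so no coordinates or sequences are printed. Genes are named by Ensembl ID and by a symbol table, which held 20915 of the IDs.

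From the counts, 19260 genes passed edgeR 4.0.16's expression filter (minimum count 10, minimum total 15), and 3253 did not. Libraries were scaled by TMM and tested with edgeR's quasi-likelihood test of tumor against normal brain, Benjamini-Hochberg adjusted over all tested genes at 0.05. The script was checked on simulated data in which few genes changed, as many up as down. That check does not cover the scaling of libraries where most genes change, as they did here. CPM uses the TMM-scaled library size. Ratios of paired genes used counts plus 0.5 and an exact permutation test (scipy 1.17.1). The depth was 13605588 to 21347976 counts per library, and no 2 libraries held identical counts.

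The 10 genes and the lists of related genes and markers were chosen with earlier results of these data known. In each list the text names the 3 genes with the smallest p in each direction, and other genes where stated; some results of the GAP list are not reported here. The alternatives were median-ratio size factors, unscaled library sizes, other filters, limma 3.58.1 voom, DESeq2 1.42.0, each library left out, and subsets of libraries.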

Additional observations from a re-analysis of the deposited data

Results flagged for a closer look

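In 28 tests of the extreme library of a group (Dixon's test at 95%, which chance passes in about 1 of 20 groups), 4 values stood apart from the rest of their group. SOS1 had a log2 CPM of 5.82 in brain tumor 13, where the next highest tumor had 5.25. In FPKM, which was not put to this test, SOS1 had 11.9 in brain tumor 13 and 9.93 in the next highest tumor. The log2 ratio of SOS1 over SOS2, which does not depend on scaling, was 0.21 in brain tumor 13 and -0.75 in the next highest. For ptpn11b, normal brain 4 had a log2 CPM of 4.93, where the next lowest normal brain had 5.47, and the same library had the highest summed skin markers of all libraries (4488 CPM) and the highest of the normal brains for oligodendrocyte lineage markers (19813 CPM, the others 12386 to 15151) and microglia and macrophage markers (1076 CPM, the others 668 to 755). The part of these cell types was not tested. For grb2b, normal brain 11 had a log2 CPM of 6.41 against 6.34 in the next highest normal brain, a gap that is small in size and stands apart because the normal brains lay so close together.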

How the results depend on the processing

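Across 26 alternatives, NF1 (ENSDARG00000004184), both RASA1 copies, grb2b, SHC1, PTPN11 and ptpn11b kept their direction and stayed past the threshold, with log2 fold changes of 1.27 to 1.65, 1.16 to 1.41 and 2.27 to 2.89 (RASA1), 0.82 to 1.14, -1.99 to -1.64, 1.53 to 1.83 and -1.03 to -0.74. SOS2 missed the threshold in 10, among them DESeq2 (0.19, adjusted p = 0.136) and unscaled library sizes (0.31, 0.061). SOS1 passed it, as lower, in 7, among them DESeq2 (-0.37, 0.00554). NF1 (ENSDARG00000012982) changed sign in 21 and never passed. The count of the 10 genes ran from 5 to 6 higher and 2 to 3 lower. Over all 19260 tested genes the counts moved as well, from 8370 higher and 6436 lower to 7264 and 7252 with median-ratio size factors. In libraries 9 to 15 alone, where 3 tumors against 4 normal brains cannot give an exact p under 0.0571, the differences in log2 ratio were 1.66 for NF1, 1.45 for RASA1 and 2.8 for PTPN11 (adjusted p = 0.0762 each, exact permutation test) and -0.44 for SOS (0.286). With any 1 library left out they ran from 1.37 to 1.61, 0.98 to 1.27, 2.36 to 2.63 and -0.75 to -0.47. Counts of the related lists, run under 4 alternatives (median-ratio size factors, no filter, DESeq2, and without brain tumor 13 and normal brains 1, 2 and 4), stayed within 1.5 times. No paired analysis was possible because the labels give no pairing of tumors with normal brains. Each of the 10 genes had at least 94 counts in every library. Reads shared by copies of a gene, the number of fish and the cell makeup of the bulk samples were not assessed.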
